A study of Mus musculus with 12 samples.

Results

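The cytochrome c oxidase isoform genes followed here are the 10 genes Cox6a1, Cox6a2, Cox7a1, Cox7a2, Cox7a2l, Cox8a, Cox8b, Cox4i1, Cox4i2 and Cox6b1, taken from the 19938 genes with a probe set of a single gene symbol. Each gene was represented by its brightest such probe set, and all 10 were measured. The signals came from mouse Gene 1.0 ST arrays of skeletal muscle of male C57Bl6 mice aged 10 to 12 weeks, in 4 groups of 3 arrays: WT diaphragm, Cox6a2 KO diaphragm, WT gastrocnemius and Cox6a2 KO gastrocnemius. The KO mice lacked Cox6a2 in the whole body, and the controls were C57BL/6J mice matched to them for age and sex and fed a regular diet, per the study's methods. The values are log2 signals, so that a difference of 1 is a doubling, and signals of different probe sets are not on a common scale. A gene was called higher or lower at a Benjamini-Hochberg adjusted p under 0.05 over all 19938 genes in limma, and p-values measure the spread between these 12 arrays.

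Cytochrome c oxidase, complex IV of the respiratory chain, passes electrons from cytochrome c to oxygen and pumps protons across the inner mitochondrial membrane. Its catalytic core is encoded in mitochondrial DNA, and the surrounding small subunits are encoded in the nucleus. Several of these small subunits exist as a form found in most tissues and a form of heart and skeletal muscle. Cox6a1, Cox7a2 and Cox8a encode the forms of most tissues. Cox6a2, Cox7a1 and Cox8b encode their heart and muscle partners, and Cox7a1 and Cox8b are also known from brown fat. Cox4i1 and Cox6b1 encode forms used by nearly all cells, Cox4i2 encodes an alternative form known from lung and vascular cells, and the product of Cox7a2l joins complex IV to complex III in supercomplexes.

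Promoter windows of 300 bases, from 250 before to 50 after the annotated start, were listed by RefSeq (GRCm38.p6) for 7 of the 10 members. Cox6a2, Cox4i1 and Cox4i2 were not among them. The windows of both partners of one subunit, Cox8b and Cox8a, and of one further gene of each kind, Cox7a1 and Cox6a1, are given 5′ to 3′ on the gene's strand to show which motifs lay near the starts of genes of each kind. Capitals mark, on either strand, the E-box (CANNTG) and the TATA box (TATAAA) in Cox8b, the E-box and the CCAAT box in Cox7a1, the ETS site (CCGGAAG) in Cox8a, and the ETS site and the NRF1 core (GCGCATG) in Cox6a1. Not every match is marked: the E-box and CCAAT box of Cox8a and the CCAAT and GC boxes of Cox6a1 are in lower case.
Cox8b (chr7:140900397-140900696, minus strand): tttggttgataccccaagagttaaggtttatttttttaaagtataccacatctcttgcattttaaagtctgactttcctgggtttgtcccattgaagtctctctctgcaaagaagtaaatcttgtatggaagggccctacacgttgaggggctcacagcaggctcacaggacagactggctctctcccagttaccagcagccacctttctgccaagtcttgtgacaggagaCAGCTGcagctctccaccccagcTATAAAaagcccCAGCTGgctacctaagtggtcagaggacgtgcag
Cox7a1 (chr7:30183921-30184220, plus strand): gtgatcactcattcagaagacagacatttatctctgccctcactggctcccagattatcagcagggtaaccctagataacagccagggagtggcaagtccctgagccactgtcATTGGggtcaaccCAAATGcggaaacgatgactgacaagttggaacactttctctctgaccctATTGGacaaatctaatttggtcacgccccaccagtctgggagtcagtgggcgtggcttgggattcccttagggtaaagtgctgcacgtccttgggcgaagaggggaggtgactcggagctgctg
Cox8a (chr19:7217567-7217866, minus strand): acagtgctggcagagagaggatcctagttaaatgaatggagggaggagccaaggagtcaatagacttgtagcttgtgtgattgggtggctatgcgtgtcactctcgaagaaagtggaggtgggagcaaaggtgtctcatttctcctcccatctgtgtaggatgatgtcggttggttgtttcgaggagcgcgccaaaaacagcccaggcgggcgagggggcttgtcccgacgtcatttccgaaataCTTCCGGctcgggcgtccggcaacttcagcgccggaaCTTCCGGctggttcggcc
Cox6a1 (chr5:115348909-115349208, minus strand): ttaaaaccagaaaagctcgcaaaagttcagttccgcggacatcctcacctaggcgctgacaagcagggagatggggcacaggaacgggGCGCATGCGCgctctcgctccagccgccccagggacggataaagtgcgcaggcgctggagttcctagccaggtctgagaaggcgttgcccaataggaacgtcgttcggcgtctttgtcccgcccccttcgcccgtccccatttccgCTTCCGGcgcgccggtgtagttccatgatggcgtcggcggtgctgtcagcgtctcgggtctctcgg
The window of Cox8b held 2 E-boxes and 1 TATA box, and no ETS site, NRF1 core, CCAAT box or GC box. The ETS site was found in the windows of Cox6a1, Cox8a and Cox6b1, with 2 copies in Cox8a, and in 9.12% of 27025 windows of all genes. The NRF1 core was found in Cox6a1, as 2 copies that overlap on opposite strands, and in 4.04% of all windows. The TATA box was found in Cox8b, after the annotated start, and in 14.2% of all windows. An E-box was found in 6 of the 7 windows, all but that of Cox6a1, and in 72.1% of all windows. The CCAAT box was found in Cox6a1, Cox7a1, Cox8a and Cox6b1 (37.9% of all windows), and the GC box (GGGCGG) in Cox6a1, Cox7a2 and Cox7a2l (35.9%). The site of estrogen-related receptors (AAGGTCA, in 4.66% of all windows), the YY1 site (AAGATGG, in 6.48%) and a MEF2 site (in 3.26%) were found in none of the 7. No motif was found in all windows of one kind and in none of the other. Apart from the pair in Cox6a1, no matches overlapped.

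The arrays labelled WT diaphragm stood apart from their label. Hoxc10, which marks the hindlimb among body positions, had a mean log2 signal of 8.68 here, close to the 8.44 of WT and 8.53 of KO gastrocnemius, whereas KO diaphragm was at 4.18. Upk3b, known from the mesothelial sheet over the diaphragm, was at 5.41 on these arrays, 5.49 in WT gastrocnemius, 5.16 in KO gastrocnemius and 9.31 in KO diaphragm. Over all genes they correlated at 0.989 to 0.992 with WT gastrocnemius and at 0.963 to 0.975 with KO diaphragm. Every KO minus WT difference in diaphragm below rests on them, so that genotype and muscle cannot be told apart there. The difference between KO diaphragm and KO gastrocnemius uses none of them and is given beside it. Its SE and p-values still draw on the spread shared by all 12 arrays of the fit.

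Cox6a2, the deleted gene, was measured first. Its log2 signals were 11.84, 11.75 and 12.06 on the arrays labelled WT diaphragm and 7.02, 6.71 and 6.94 in KO diaphragm. In gastrocnemius they were 11.84, 11.65 and 11.73 in WT and 6.71, 7.18 and 6.91 in KO. No KO array came near a WT array in either muscle, and the KO arrays of both muscles overlapped each other. The fitted difference was -5.00 (SE 0.127, adjusted p = 7.2e-12) in diaphragm, and -4.81 (adjusted p = 2.47e-11) in gastrocnemius. These correspond to signals at least 31.9-fold and at least 28.0-fold lower, as limits only, since the background of the probe set was not measured and may make up the KO signal.

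**Figure D1:**
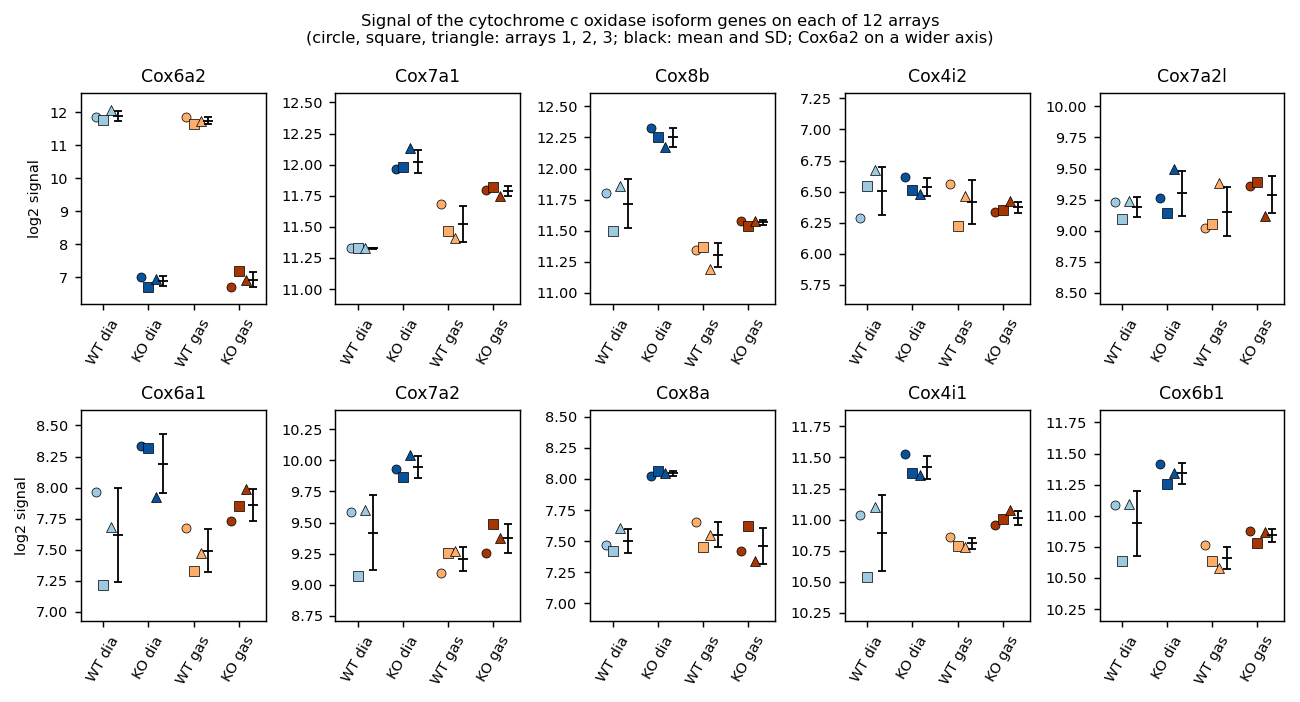
Log2 signal (vertical axes) of the 10 members on the 3 arrays of each group (horizontal axes; WT and KO, dia for diaphragm, gas for gastrocnemius), with the mean and SD in black. Cox6a2 fell to between 6.71 and 7.18 on all 6 KO arrays, and Cox7a1, Cox8b, Cox7a2, Cox8a, Cox4i1 and Cox6b1 had every KO diaphragm array above every array labelled WT diaphragm.

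Between the arrays labelled WT diaphragm and KO diaphragm, 7 of the 10 members were higher in KO, 1 (Cox6a2) was lower and 2 were not called. Over all genes tested, 16.3% were called higher and 11.2% lower. The 7 were both remaining heart and muscle genes, Cox7a1 and Cox8b, and the genes of most tissues Cox6a1, Cox7a2, Cox8a, Cox4i1 and Cox6b1. Over the 9 members other than Cox6a2 the median difference was 0.53, with a range of 0.035 to 0.70, against -0.044 over all genes. For 6 of these 9 every KO array lay above every WT array, as for 20.9% of all genes, and for Cox6a2 every KO array lay below, as for 22.2%.

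Cox7a1, the heart and muscle form of the COX7A subunit, showed the largest rise among the members. Its log2 signals were 11.33, 11.33 and 11.33 on the arrays labelled WT diaphragm and 11.96, 11.98 and 12.13 in KO diaphragm. In gastrocnemius they were 11.68, 11.47 and 11.41 in WT and 11.80, 11.82 and 11.74 in KO. The 4 groups did not overlap, in the order KO diaphragm, KO gastrocnemius, WT gastrocnemius and WT diaphragm label from high to low. The rise in diaphragm was 0.70 (SE 0.091, adjusted p = 5.68e-05), a 1.62-fold higher signal. The neighbours in the order differed by 0.24 (adjusted p = 0.0658), 0.27 (adjusted p = 0.173) and 0.19 (adjusted p = 0.391), and none of these steps passed the test.

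Cox8b, the heart and muscle form of the COX8 subunit, had log2 signals of 11.80, 11.49 and 11.86 on the arrays labelled WT diaphragm and 12.33, 12.25 and 12.18 in KO diaphragm. In gastrocnemius they were 11.35, 11.37 and 11.19 in WT and 11.58, 11.54 and 11.58 in KO. KO diaphragm was highest and WT gastrocnemius lowest, each apart from the other groups, while the WT diaphragm label and KO gastrocnemius overlapped. The KO minus WT difference was 0.53 (SE 0.102, adjusted p = 0.00126) in diaphragm, 1.45-fold, and 0.26 (adjusted p = 0.223) in gastrocnemius. Between the WT diaphragm label and WT gastrocnemius, Cox8b and Cox7a1 differed in opposite directions. The WT diaphragm label minus WT gastrocnemius was 0.41 (adjusted p = 0.0971) for Cox8b and -0.19 (adjusted p = 0.391) for Cox7a1. Neither passed the test.

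The partner isoforms of most tissues were also higher in KO diaphragm. Cox6a1, whose product is the counterpart of the deleted subunit, had log2 signals of 7.97, 7.21 and 7.68 on the arrays labelled WT diaphragm and 8.33, 8.32 and 7.92 in KO diaphragm. The lowest KO array lay just below the highest WT array, so that the groups overlapped. The difference was 0.57 (SE 0.169, 95% interval 0.21 to 0.93, adjusted p = 0.0207), or 1.49-fold. This call was lost without WT diaphragm replicate 2 (0.37, adjusted p = 0.0926), without KO diaphragm replicate 1 (0.50, adjusted p = 0.0672) or replicate 2 (0.51, adjusted p = 0.0775), and with the 6 diaphragm arrays fitted alone (adjusted p = 0.0535).

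In gastrocnemius, where hindlimb and mesothelium genes matched the labels of both genotypes, the log2 signals of Cox6a1 were 7.67, 7.33 and 7.48 in WT and 7.73, 7.85 and 7.99 in KO. All KO arrays lay above all WT arrays, by narrow margins. The difference of 0.36 (95% interval 0.0018 to 0.72) had an unadjusted p of 0.049 and an adjusted p of 0.302 in limma. From high to low the groups ran KO diaphragm, KO gastrocnemius, WT diaphragm label and WT gastrocnemius, and each neighbouring pair overlapped.

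Cox7a2, the partner of Cox7a1, was at 9.59, 9.07 and 9.60 in the WT diaphragm group by label and at 9.93, 9.87 and 10.04 in KO diaphragm. It rose by 0.53 (SE 0.130, adjusted p = 0.00708), or 1.44-fold. Its KO minus WT difference in gastrocnemius was 0.16 (adjusted p = 0.551), with overlapping arrays.

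Cox8a, the partner of Cox8b, had log2 signals of 7.47, 7.42 and 7.61 on the arrays labelled WT diaphragm and 8.03, 8.07 and 8.05 in KO diaphragm, a rise of 0.55 (SE 0.096, adjusted p = 6.7e-04), or 1.46-fold. In gastrocnemius they were 7.65, 7.45 and 7.55 in WT and 7.42, 7.63 and 7.34 in KO, a difference of -0.087 (adjusted p = 0.68). KO diaphragm stood alone above the other groups, which all overlapped.

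Cox4i1, the form of the COX4 subunit found in nearly all cells, was at 11.04, 10.54 and 11.10 in the WT diaphragm group by label and at 11.52, 11.38 and 11.36 in KO diaphragm. It rose by 0.53 (SE 0.125, adjusted p = 0.00572), and by 0.35 without WT diaphragm replicate 2. Cox6b1, whose product lies on the side of the complex where cytochrome c docks, was at 11.09, 10.64 and 11.09 and at 11.42, 11.26 and 11.35. Its rise of 0.40 (SE 0.116, adjusted p = 0.0191) was not called without WT diaphragm replicate 2 (0.25, adjusted p = 0.0713). The call was also lost without KO diaphragm replicate 1 (0.36, adjusted p = 0.0607), or with the 6 diaphragm arrays fitted alone (adjusted p = 0.0554). The methods' t-test gave an unadjusted p of 0.0655 for this rise.

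Cox4i2 and Cox7a2l were the members with no call in either muscle. Cox4i2 was at 6.29, 6.55 and 6.67 in the WT diaphragm group by label and at 6.62, 6.51 and 6.48 in KO diaphragm, with 95% intervals of the KO minus WT difference from -0.20 to 0.27 in diaphragm and from -0.28 to 0.20 in gastrocnemius. Its 4 groups lay between 6.22 and 6.67, and neighbours in their order overlapped. The sign of its difference in diaphragm turned from 0.035 to -0.039 with arrays centred on their medians. For Cox7a2l, the brightest probe set gave a difference of 0.11 (adjusted p = 0.53) in diaphragm and 0.14 (adjusted p = 0.599) in gastrocnemius. A dimmer second probe set of Cox7a2l gave 0.57 and 0.34, and with both averaged the gene was called in diaphragm at 0.34 (adjusted p = 0.0267), so that the probe sets of this gene disagree.

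**Figure D2:**
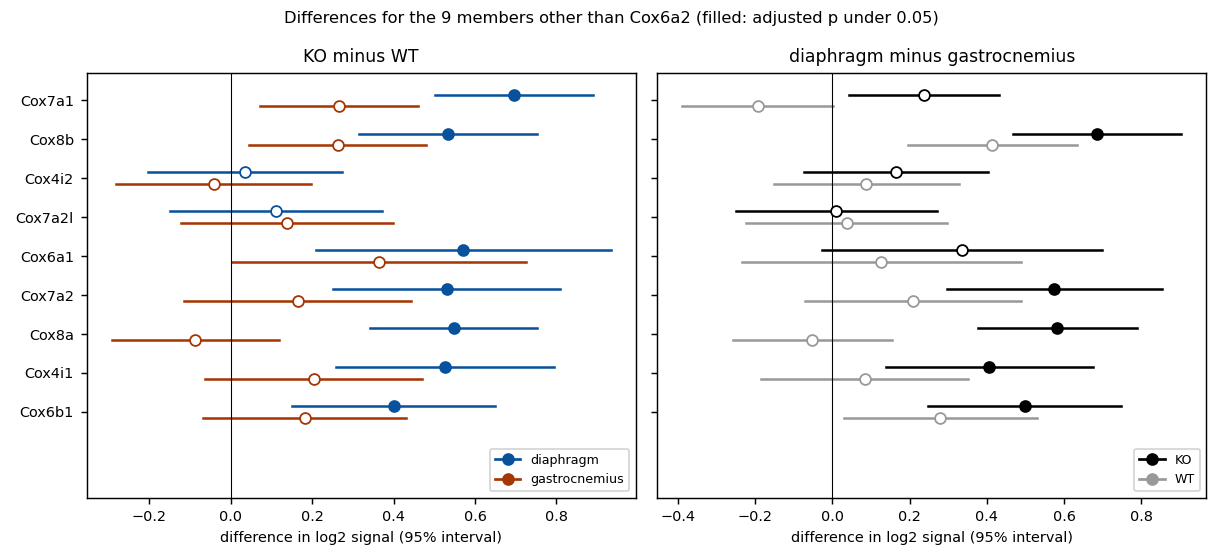
Fitted difference in log2 signal with its 95% interval (horizontal axes) for the 9 members other than Cox6a2 (vertical axis), as KO minus WT in each muscle on the left and as diaphragm minus gastrocnemius in each genotype on the right. Filled points have an adjusted p under 0.05: 7 members in diaphragm and none in gastrocnemius on the left, 5 members in KO and none in WT on the right.

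In gastrocnemius no member was higher in KO at the threshold, and Cox6a2 alone was lower. Over all genes 0.406% were called higher and 0.186% lower. Of the 9 other members, 3 had an unadjusted limma p under 0.05, all with positive differences: Cox7a1 (0.27), Cox8b (0.26) and Cox6a1 (0.36). For 5 of the 9 (these 3, Cox4i1 and Cox6b1) every KO array lay above every WT array, as for 12.3% of all genes, and for Cox6a2 every KO array lay below, as for 11% of all genes. The median difference of the 9 was 0.18, against -0.015 over all genes. The methods' t-test without adjustment counted 5 of them as higher, against 1557 of all 19938 genes. For the unadjusted limma p no count over all genes is given here.

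The KO minus WT difference of 2 members was itself larger in diaphragm than in gastrocnemius. Over all genes this interaction was called higher for 8.76% and lower for 6.07%. It was 0.63 (SE 0.136, adjusted p = 0.00551) for Cox8a and 0.43 (SE 0.129, adjusted p = 0.0365) for Cox7a1. The call for Cox7a1 was lost with median centring (adjusted p = 0.113), with quantile normalization (adjusted p = 0.154), with the replicate number as a block (adjusted p = 0.0569), and when any array other than KO diaphragm replicate 1 or WT gastrocnemius replicates 2 and 3 was left out (highest adjusted p = 0.0861). For the other 7 members apart from Cox6a2 the interaction ranged from -0.027 for Cox7a2l to 0.37 for Cox7a2, and none passed the test.

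In means that use no WT array, KO diaphragm was higher than KO gastrocnemius for 5 of the 10 members, and no member was lower. The 5 were Cox8b, Cox8a, Cox7a2, Cox6b1 and Cox4i1. The SE and p-values came from the fit of all 12 arrays. The calls of Cox8b, Cox8a, Cox7a2 and Cox6b1 held under all 22 alternatives, among them the 6 KO arrays fitted alone. Over all genes 17.7% were called higher and 11.2% lower. Cox8b showed the largest difference, 0.69 (SE 0.102, adjusted p = 1.57e-04), followed by Cox8a at 0.58 (adjusted p = 3.72e-04), Cox7a2 at 0.57 (adjusted p = 0.00394), Cox6b1 at 0.50 (adjusted p = 0.00487) and Cox4i1 at 0.41 (adjusted p = 0.0239). Cox7a1, the member with the largest KO minus WT rise in diaphragm, differed by 0.24 (adjusted p = 0.0658), with no overlap of the arrays. For 7 members (these 6 and Cox4i2) all KO diaphragm arrays lay above all KO gastrocnemius arrays, as for 25.7% of all genes. The call for Cox4i1 was lost with median centring (0.28, adjusted p = 0.106), and without KO diaphragm replicate 1 (0.35, adjusted p = 0.0826), KO gastrocnemius replicate 1 (0.38, adjusted p = 0.0781) or KO gastrocnemius replicate 2 (0.40, adjusted p = 0.0598). This comparison shares the KO diaphragm arrays with KO minus WT in diaphragm.

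Between the arrays labelled WT diaphragm and WT gastrocnemius no member was called in limma, against 0.296% of all genes called higher and 0.166% lower. Unadjusted, 2 members had a limma p under 0.05, Cox8b (0.41) and Cox6b1 (0.28), with no count over all genes given here. The methods' t-test without adjustment counted 1 of the 10 members as higher, against 1322 of all 19938 genes. Cox8b was the only member whose WT diaphragm arrays all lay above those of WT gastrocnemius (10.9% of all genes), and Cox7a1 the only one with all below (5.91%). Without WT diaphragm replicate 2, Cox8b was called at 0.53 (adjusted p = 0.0338).

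Whether the heart and muscle form shifted against its partner was read from the difference of both log2 signals within each array. The level of such a difference also holds the brightness of both probe sets, so that only its shifts between groups were compared, with exact two-sided permutation tests of 3 arrays against 3, whose smallest p is 0.1. For 4 pairs in 4 comparisons the lowest adjusted p over these 16 was 0.229, so that no shift could pass the threshold.

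The shift of Cox7a1 against Cox7a2 between genotypes depended on single WT arrays. Cox7a1 minus Cox7a2 was 1.91 ± 0.31 (SD, n = 3) for the WT diaphragm label and 2.08 ± 0.043 (SD, n = 3) in KO diaphragm, a shift of 0.17 (exact p = 0.4). It was 0.34 without WT diaphragm replicate 2, when every KO array lay above the WT arrays left, 0.080 without replicate 1, 0.074 without replicate 3 and 0.047 with quantile normalization. In gastrocnemius it was 2.31 ± 0.24 (SD, n = 3) in WT and 2.41 ± 0.12 (SD, n = 3) in KO, a shift of 0.10 (exact p = 0.6). Without WT gastrocnemius replicate 1 it was 0.24, again with every KO array above the WT arrays left, and it was 0.049 without replicate 2, 0.016 without replicate 3 and 0.035 without KO gastrocnemius replicate 1. Between the KO muscles it was lower in diaphragm on every array, by -0.34 (exact p = 0.1).

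Cox8b minus Cox8a was 4.22 ± 0.13 (SD, n = 3) for the WT diaphragm label and 4.20 ± 0.086 (SD, n = 3) in KO diaphragm, a shift of -0.014 (exact p = 0.9). In gastrocnemius it was 3.75 ± 0.15 (SD, n = 3) in WT and 4.10 ± 0.16 (SD, n = 3) in KO, a shift of 0.35 (exact p = 0.2), with overlapping arrays. On the arrays labelled WT diaphragm every value lay above those of WT gastrocnemius, by 0.47 (exact p = 0.1). Cox4i2 minus Cox4i1 was lower in KO than in WT on every array, by -0.49 in diaphragm and -0.25 in gastrocnemius (exact p = 0.1 for each). Cox4i1 alone differed by 0.53 and 0.20 and Cox4i2 alone by 0.035 and -0.043, so that most of this shift lay in Cox4i1. The background of the Cox4i2 probe set was not measured and may make up much of its low signal. The shift in diaphragm was -0.29 without WT diaphragm replicate 2 and -0.67 without replicate 1, with all KO arrays still the lower ones.

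**Figure D3:**
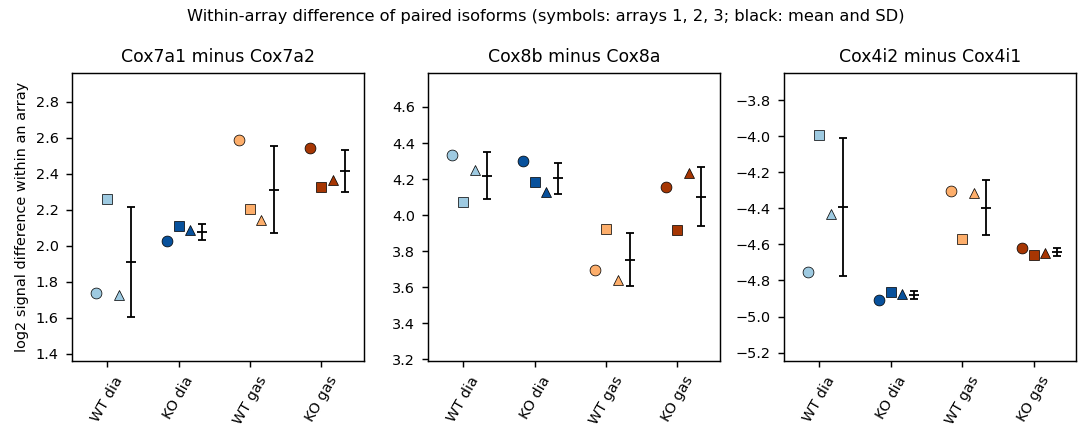
Difference of the log2 signals of 2 isoforms of a subunit within each array (vertical axes) by group (horizontal axes), with the mean and SD in black. Cox7a1 minus Cox7a2 shifted by 0.17 (0.34 without WT diaphragm replicate 2, the highest of its group) and Cox8b minus Cox8a by -0.014 between the arrays labelled WT diaphragm and KO diaphragm. Cox4i2 minus Cox4i1 was lower on all KO arrays than on the WT arrays of the same muscle, while Cox4i2 alone differed by 0.035 in diaphragm and -0.043 in gastrocnemius.

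Other nuclear subunits of the complex were read from a fixed list, of which 5 of 6 had a probe set of a single symbol. All 5 rose in KO diaphragm against the arrays labelled WT diaphragm, with a median of 0.47: Cox6c by 0.62 (adjusted p = 1.46e-04), Cox7b by 0.61, Cox5b by 0.47, Ndufa4 by 0.46 and Cox5a by 0.34. None was called in gastrocnemius, against 0.406% of all genes called higher and 0.186% lower. All 5 differences there were positive, with a median of 0.15, against -0.015 over all genes. Cox5a showed the largest, 0.39 (adjusted p = 0.0975). Cycs, the cytochrome c that feeds the complex, rose by 0.52 (adjusted p = 0.00265) in diaphragm. COX2, a core subunit from mitochondrial DNA, differed by 0.17 (adjusted p = 0.17) in diaphragm and 0.10 (adjusted p = 0.577) in gastrocnemius. The isoforms known from testis had low signals, and of Cox6b2, Cox7b2 and Cox8c only Cox8c was called, with a fall of -0.24 (adjusted p = 0.0396) in diaphragm.

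WT diaphragm replicate 2 was low for most of the family. It was the lowest of its group for Cox6a1, Cox6a2, Cox7a2, Cox7a2l, Cox8a, Cox8b, Cox4i1 and Cox6b1, by up to 0.52 below the next array (Cox7a2), and also for Cox5a, Cox5b, Cox6c, Cox7b and Ndufa4. The exceptions were Cox4i2, which stood 0.26 above the lowest array, and Cox7a1, at 11.33 on all 3 arrays of this group. Across the 12 arrays, deviations from the group means correlated at r = 0.93 for Cox4i1 and Cox6b1, 0.89 for Cox4i1 and Cox8b, and 0.88 for Cox8b and Cox6b1. For Cox7a1 the same value was -0.025 with Cox4i1, 0.011 with Cox8b and 0.21 with Cox6b1. Over all other members it ran from -0.11 (Cox7a2) to 0.45 (Cox8a). These correlations describe 12 points in groups of 3, which share their normalization.

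**Figure D4:**
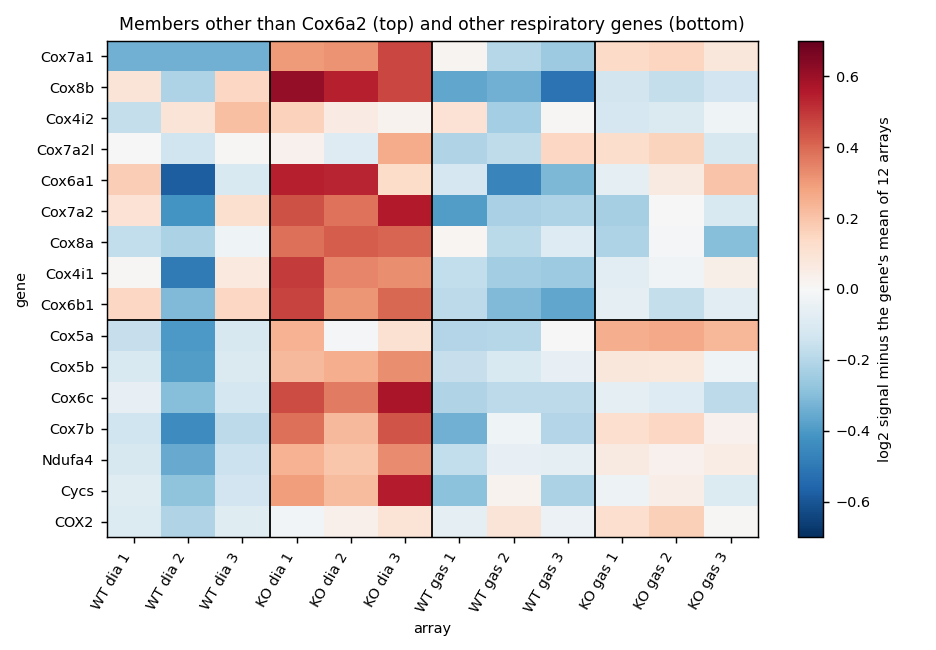
Log2 signal of each gene minus its mean over the 12 arrays (colour) for the 9 members other than Cox6a2 and for other respiratory genes (vertical axis) on each array (horizontal axis). The KO diaphragm arrays are above the mean for all 7 members called in that muscle, and WT diaphragm replicate 2 is below it for most genes but stands with its group for Cox7a1.

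The genes whose signals followed Cox6a2 most closely over the 12 arrays, among 3009 genes with an SD of at least 0.3, were Cacng7 (r = 0.97), Pgap2 (r = 0.96), Trim12a (r = 0.95), Wdr11 (r = 0.91) and Myod1 (r = 0.90). All 5 lie on chromosome 7 with Cox6a2. Trim12a was lower in KO by -1.69 in diaphragm and -1.75 in gastrocnemius (adjusted p = 1.05e-05 and 3.51e-04), and Cacng7, which encodes a calcium channel subunit, by -1.39 and -0.93 (adjusted p = 2.98e-07 and 5.13e-04). Myod1, the muscle determination factor, fell by 1.12 in diaphragm, while its difference in gastrocnemius was -0.58 (adjusted p = 0.0676). Chromosome 7 held 22 of the 118 genes called in gastrocnemius (18.6%) and 14 of the 48 called in the same direction in both muscles (29.2%), against 8.73% of all genes placed. Of the 5492 placed genes called in diaphragm it held 430 (7.83%), below that share. Among the 3 nearest measured genes on each side of Cox6a2 none was called in gastrocnemius. The shares of all genes there were 0.406% higher and 0.186% lower. In diaphragm 3 of the 6 were called, Itgam higher (2.03), and 9130023H24Rik (-0.38) and Armc5 (-0.41) lower. There 16.3% of all genes were called higher and 11.2% lower. Cox7a1, Cox8b and Cox6b1 also lie on chromosome 7, and the part of position in their values was not tested.

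The patterns of the heart and muscle genes that kept their signal had other company. Cox7a1 was followed most closely by Sparcl1 (r = 0.95), Hibch (r = 0.95), Rny3 (r = 0.94), Angpt1 (r = 0.94) and Grb10 (r = 0.93), of which Hibch encodes an enzyme of valine breakdown and Angpt1 an endothelial growth factor. Cox8b was followed by Rcan2 (r = 0.98), Wfs1 (r = 0.98), Ndufa10 (r = 0.97), Prkag1 (r = 0.97) and Zdhhc23 (r = 0.97), of which Ndufa10 encodes a complex I subunit and Prkag1 a subunit of AMP-activated kinase. For Cox4i2 the highest correlation was 0.74, with Ano7. These are descriptions over 12 arrays that share 4 group means.

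Markers of fiber type and of other cells moved with the diaphragm results. Counts of higher and lower genes here are of called genes. Over all genes, KO diaphragm was called higher than the arrays labelled WT diaphragm for 16.3% and lower for 11.2%. Against KO gastrocnemius these shares were 17.7% and 11.2%. All 9 oxidative fiber genes were higher in KO diaphragm (median 1.41, against -0.044 over all genes, summed log2 signal 15.01 to 15.16, against 13.47 to 14.10 on the arrays labelled WT diaphragm), with Myh7, the slow myosin, higher by 1.41. All 6 glycolytic fiber genes were lower (median -2.63, summed 12.24 to 12.69 against 15.45 to 15.51), with Myh4, the fast myosin, lower by -4.61. Mesothelium genes were higher for 8 of 8 (median 3.02, summed 10.97 to 11.84 against 8.13 to 8.25) and hindlimb position genes lower for 8 of 10 (median -1.002, summed 8.82 to 8.96 against 10.29 to 10.44). Of 6 brown adipocyte genes 2 were higher (median 0.20, summed 9.39 to 9.88 against 8.54 to 8.76), with Cidea higher by 1.44 and Ucp1, the defining gene, at 4.19 in KO diaphragm and 4.13 on the arrays labelled WT diaphragm. Endothelial genes were higher for 3 of 4 (11.30 to 11.47 against 10.32 to 10.71), macrophage genes for 4 of 4 (9.72 to 10.14 against 8.51 to 8.91) and white adipocyte genes for 3 of 4 (8.56 to 10.67 against 7.75 to 8.10). Of 10 pericyte and smooth muscle genes 2 were higher and 3 lower, and of 7 cardiac genes 1 and 2. Of 6 other muscle fiber genes (Acta1, Ckm, Des, Tnnt3, Mb and Mybpc1) 2 were higher, Mb and Mybpc1, and 1 lower. Between the KO muscles, whose means use no WT array, 8 of 9 oxidative genes were higher in diaphragm and 6 of 6 glycolytic lower. Mesothelium genes were higher there for 8 of 8 (10.97 to 11.84 in KO diaphragm against 8.06 to 8.13 in KO gastrocnemius), macrophage genes for 4 of 4 (9.72 to 10.14 against 8.54 to 8.94), endothelial genes for 4 of 4 (11.30 to 11.47 against 10.36 to 10.50), white adipocyte genes for 3 of 4 (8.56 to 10.67 against 7.98 to 8.32) and brown adipocyte genes for 3 of 6, and hindlimb position genes were lower for 9 of 10. Of the pericyte and smooth muscle genes 4 were higher and 1 lower, of the cardiac genes 1 and 1, and of the 6 other muscle fiber genes 2 (Mb and Mybpc1) and 1. The part of these markers in the higher signals of Cox7a1, Cox8b and the other members was not tested, and in such bulk samples more cells of a type and more RNA per cell cannot be told apart. In gastrocnemius no gene of these lists was called, and the summed oxidative signal was 13.59 to 14.28 in WT and 13.80 to 14.20 in KO.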

How the data were processed

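Gene expression of 12 muscle samples was measured on mouse Gene 1.0 ST arrays. The authors deposited log2 signals per transcript cluster, which they had obtained with RMA sketch in Affymetrix Expression Console (version not given in the sources used here); such signals are background-corrected and normalized between arrays. The deposited table holds no comparison of groups. Arrays have no read depth, and their number limits the precision.

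Of 35556 probe sets, 21789 with 1 gene symbol were kept (1621 had several and 12146 were unlisted), and the brightest per gene was used for 19938 genes; 999 genes, Cox7a2l among the members, had more than 1. The groups, taken from the labels, were fitted in 1 model of 4 means without covariates in R 4.3.3 with limma 3.58.1 (lmFit, eBayes), adjusted by Benjamini-Hochberg. The script was tested on simulated data of 19938 genes with the arrays of the KO against WT diaphragm design. It recovered 98 of 100 genes changed by 1 (log2) and 39 of 100 changed by 0.5, with 13 false calls, so that differences near 0.5 can be missed. Far fewer genes were changed there than were called in diaphragm (16.3% higher and 11.2% lower), so that these recovery rates do not carry over to that comparison. Exact permutation tests served the isoform pairs.

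The members and lists were chosen with earlier results of these data known. Genes named are all members, the other complex IV and cytochrome c genes listed, the 5 genes most correlated with Cox6a2, Cox7a1, Cox8b and Cox4i2 (predicted genes skipped), and markers; TATAAA was added to the motifs after the windows were seen. The mitochondrial gene was matched through its RefSeq symbol COX2. RefSeq's GRCm38.p6 annotation gave chromosomes and neighbours, and promoter windows were searched in Python 3.11.15. Nothing in the labels says that equal replicate numbers share a mouse or a day. Alternatives were the diaphragm or gastrocnemius arrays alone, a replicate block, eBayes with trend and robust, quantile normalization, median centring, a restriction to the brighter genes (from the median signal up), averaging all probe sets of a gene, omitting the WT diaphragm label, leaving out each array, and the methods' t-test.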

Additional observations from a re-analysis of the deposited data

Results flagged for a closer look

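The KO minus WT difference was larger in diaphragm than in gastrocnemius by 0.43 for Cox7a1 and by 0.63 for Cox8a (interaction in limma, adjusted p = 0.0365 and 0.00551). Both draw on the arrays labelled WT diaphragm, whose hindlimb and mesothelium genes were at the level of gastrocnemius, so that genotype and muscle cannot be told apart in them. Between the KO muscles, whose means use none of those arrays, Cox8a was higher in diaphragm by 0.58 (adjusted p = 3.72e-04). For Cox7a1 the difference was 0.24 (adjusted p = 0.0658).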

How the results depend on the processing

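The count of members called higher in KO diaphragm was 5 to 8 under all limma alternatives and 5 to 7 with each array left out. Counts over all genes under those settings are not given here. With the methods' t-test after Benjamini-Hochberg the count of members was 2, against 1054 of all 19938 genes. In gastrocnemius the methods' t-test counted 5 members as higher unadjusted, against 1557 of all 19938 genes. After adjustment it counted none as lower (Cox6a2: adjusted p = 0.0511, with 0 genes called in all). The interaction was called higher for 2 members in the main fit, against 1747 of all genes. It was called for 1, Cox8a, with median centring (against 1225 of all genes), quantile normalization (1482) or the replicate block (1715). With each array left out it was called for 1 to 2 members. Where it was called for 1, the count over all genes was 1367 to 1634. Members called higher on the WT diaphragm label than in WT gastrocnemius numbered 1 with the unadjusted t-test, against 1322 of all 19938 genes. With each array left out they numbered 0 to 1, and the 1, without WT diaphragm replicate 2, stood against 53 of all genes. Deviations of equally numbered arrays from their group means correlated at -0.096 to 0.16, and those of unequally numbered arrays at -0.23 to 0.17. Such deviations cancel out within each small group. These values therefore cannot settle whether equal numbers share a mouse or a day. The replicate block changed no call of a member other than that of Cox7a1.

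Signs turned only for values that were not called. Cox4i2 became -0.054 (median centring) and -0.016 (quantile) in the interaction, -0.039 and -0.055 in diaphragm, and 0.015 (median centring) in gastrocnemius. Cox7a2l became -0.12 between the KO muscles (median centring), and 0.10 (mean of probe sets) and 0.012 (quantile) in the interaction. With each array left out, Cox4i2 ranged from -0.072 to 0.12 for KO minus WT in diaphragm, -0.14 to 0.029 in gastrocnemius, -0.029 to 0.18 in the interaction and -0.0099 to 0.19 between the WT labels. Between the WT labels Cox4i1 ranged from -0.020 to 0.26, Cox6a1 from -0.045 to 0.33 and Cox7a2l from -0.027 to 0.15. Between the KO muscles Cox6a2 ranged from -0.15 to 0.079 and Cox7a2l from -0.088 to 0.089, and Cox7a2l from -0.14 to 0.052 in the interaction. Among the pair differences, Cox4i2 minus Cox4i1 ranged from -0.20 to 0.18 and Cox6a2 minus Cox6a1 from -0.12 to 0.21 between the WT labels, and Cox8b minus Cox8a from -0.086 to 0.044 for KO minus WT in diaphragm.

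Median centring moved the median of all genes to -0.12 for KO minus WT diaphragm, -0.13 for the interaction and -0.11 between the KO muscles.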
